A study of Arabidopsis thaliana with 4 samples.

Results

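Root hair expansins and extensins are cell wall protein genes that are active in growing root hairs. The set held 10 genes of Arabidopsis thaliana, chosen by name: the expansin genes EXPA7 and EXPA18, the hydroxyproline-rich glycoprotein gene HRGP1, and 7 extensin loci. The annotation used here named a probe set of its own on the Affymetrix ATH1 array for 13286 genes, 6 of the 10 among them. It left 8730 of the 22746 probe sets unnamed. AT4G08400 had a probe set shared with AT4G08410. The extensin genes AT5G06640 (EXT10), AT5G35190 (EXT13) and AT2G24980 (EXT6) were not analysed here. The arrays came from seedlings of the mutant aln-1 and of the wild type Col-0, with 2 biological replicates of each genotype. The aln-1 line carries a mutant allele of ALN, the allantoinase gene, in the Col-0 background, and the mutant accumulates allantoin, an intermediate of purine breakdown. All seedlings grew in sterile culture on solid medium with sucrose in long days, and only their aerial parts were collected, 2 weeks after germination. The genes were chosen with the difference between these genotypes in view, so that difference is described for them without a test.

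Expansins are wall proteins that loosen the bonds between cellulose and matrix polysaccharides, and they let a cell wall stretch under turgor. Extensins are hydroxyproline-rich glycoproteins that are modified with arabinose chains, secreted and cross-linked into a network that holds the wall together. A root hair is a single tubular outgrowth of a root epidermal cell. It lengthens at its tip, where wall loosening and the laying down of new wall proteins go on together. EXPA7 and EXPA18 are known for their activity in root hair cells, and the labels here name aerial tissue.

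Each value below is a log2 signal relative to the median of the same probe set on the 4 arrays, so it shows where an array stands among the 4 and not how strongly a gene is expressed. Where the genotypes do not overlap, the inner value of each genotype is the same distance from 0 by construction. In this bulk tissue fewer cells of a type and less RNA per cell cannot be told apart. ALN itself was at -1.59 and -1.72 on the aln-1 arrays, against 1.59 and 2.03 on the Col-0 arrays, and limma gave it an adjusted p of 0.0580 over all 22746 probe sets.

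Both root hair expansin genes had higher signals in aln-1. EXPA7 was at 0.44 and 0.71 on the aln-1 arrays, against -1.27 and -0.44 on the Col-0 arrays. The Col-0 arrays lay further apart than the aln-1 arrays, and both stood below the lower aln-1 array by at least 0.89. EXPA7 averaged 0.58 ± 0.19 in aln-1 and -0.85 ± 0.58 in Col-0 (SD, n = 2 each). The difference was 1.43 (SE 0.36), or 2.70-fold. Without Col-0 replicate 1, the lowest array, the difference was 1.02.

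EXPA18, the close companion of EXPA7 in root hairs, was at 0.37 and 0.86 on the aln-1 arrays, against -0.67 and -0.37 on the Col-0 arrays. Here too the genotypes did not overlap. The mean was 0.61 ± 0.34 in aln-1 and -0.52 ± 0.21 in Col-0 (SD, n = 2 each), which gives a difference of 1.14 (SE 0.25) or 2.20-fold. With each array left out in turn, the difference of EXPA18 ranged from 0.90 to 1.38.

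The extensin loci HRGP1 and AT3G54580 are next to each other on chromosome 3 in the TAIR10.1 annotation, and both had moderately higher signals in aln-1. HRGP1 was at 0.10 and 0.40 on the aln-1 arrays, against -0.60 and -0.10 on the Col-0 arrays. Its difference of 0.61 (SE 0.26), or 1.52-fold, shrank to 0.36 without Col-0 replicate 1. AT3G54580 was at 0.28 and 0.30 on the aln-1 arrays, against -0.49 and -0.28 on the Col-0 arrays. The aln-1 arrays of AT3G54580 were nearly equal, and the difference of 0.68 (SE 0.15), or 1.60-fold, ranged from 0.57 to 0.78 with each array left out. The HRGP1 probe set carries the suffix _x_at, by which Affymetrix marks probes that can bind other transcripts, so its value and that of the neighbouring gene need not be independent.

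The other measured extensin loci differed less or in a less stable way. AT4G08410 was at 0.24 and 0.11 on the aln-1 arrays, against -0.22 and -0.11 on the Col-0 arrays, a difference of 0.34 (SE 0.14) or 1.26-fold. AT5G06630 was at -0.07 and 0.07 on the aln-1 arrays, against -0.09 and 0.11 on the Col-0 arrays. The genotypes of AT5G06630 overlapped, and its difference of -0.01 (SE 0.16) was 0.05 when arrays were centred on their medians. Both probe sets are of the _x_at type.

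The probe set shared by AT4G08400 and AT4G08410 was at 0.74 and 0.04 on the aln-1 arrays, against -0.04 and -2.01 on the Col-0 arrays. Its aln-1 arrays were the higher pair by only 0.07, the aln-1 arrays lay apart, and Col-0 replicate 2 was far below the other 3 arrays. Its difference was 1.41 (SE 0.82). It was also the one probe set of the 7 whose rounding step belongs to signals below 16, where the median within-genotype SD of all probe sets was 0.94. The probe set of AT4G08410 alone did not show the low value on Col-0 replicate 2.

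**Figure D1:**
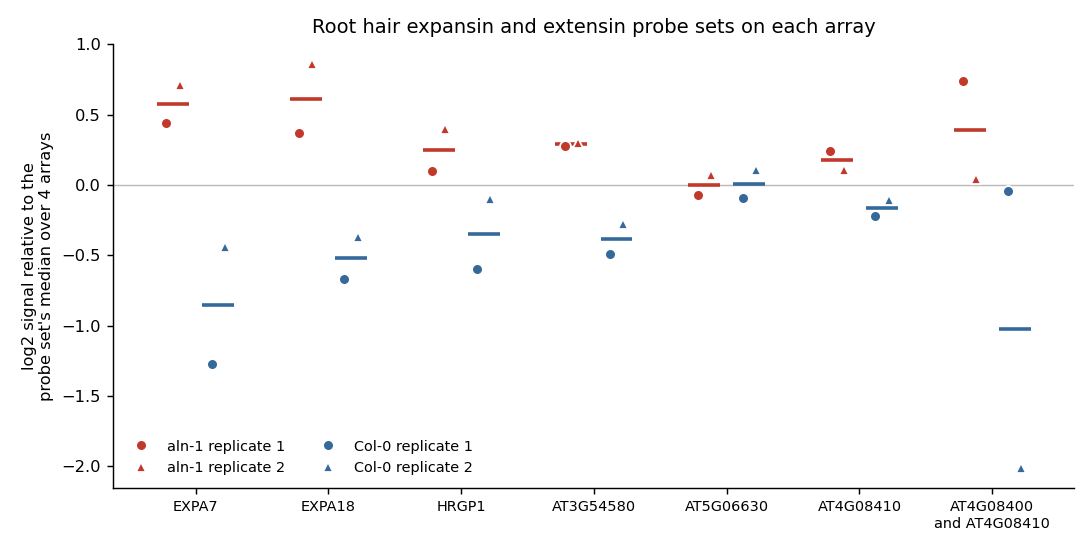
Log2 signal relative to the probe set's median over the 4 arrays (y axis) for 6 genes with a probe set of their own and for the probe set shared by AT4G08400 and AT4G08410. Circles are replicate 1, triangles replicate 2 and bars the mean of 2 arrays, with aln-1 left of Col-0; EXPA7 and EXPA18 show the widest gaps among the 6 and AT5G06630 overlaps.

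Taken over the 6 genes with their own probe set, the median difference was 0.64, beside -0.08 over all probe sets, and the range was -0.01 to 1.43. The aln-1 arrays both exceeded the Col-0 arrays for 5 of the 6 genes, as they did for 25.2% of all probe sets; this contrast chose the genes, and the count is given as a description. None of the 6 was 2-fold higher in aln-1 in all 4 array pairs, a gap that 4.67% of all probe sets showed. With the _x_at probe sets left out, EXPA7, EXPA18 and AT3G54580 remained, and their median difference was 1.14. Rounding steps placed HRGP1 at signals of at least 256 and the other 5 genes between 16 and 256. No source used here gives the scale of the signals, so these brackets say only that none of the 6 belonged with the dimmest 19.2% of probe sets.

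The replicates of a genotype also differed in a shared direction. The genes were chosen with earlier results of these arrays known, so these counts too are given as a description. Col-0 replicate 2 was above Col-0 replicate 1 for 6 of 6 genes, with a median gap of 0.26, whereas it was above for 47.6% of all probe sets with a median gap of -0.01. The widest gap was that of EXPA7, 0.82, followed by HRGP1 with 0.50, EXPA18 with 0.30 and AT3G54580 with 0.21. Within aln-1, replicate 2 was above replicate 1 for 5 of 6 genes, with a median gap of 0.20, beside 45.0% of all probe sets. AT4G08410 was the exception, at 0.24 on replicate 1 and 0.11 on replicate 2. The shared probe set of AT4G08400 and AT4G08410 went the other way in both genotypes. The 6 genes share these 4 arrays and, in part, sequence, so they are not independent of each other.

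The other expansins lay on both sides of 0, and the 3 measured expansin-like A genes were all higher in aln-1. The array measured 16 of 33 genes, and 0 of 16 passed the limma test over all probe sets (adjusted p under 0.05, a threshold met by 0.255% of probe sets). At an unadjusted limma p under 0.05 there were 5 higher and 0 lower genes, beside 11.1% and 12.3% of all probe sets. The median difference was 0.15, with 8 genes above 0 and 8 below. Without Col-0 replicate 1 this median was -0.01, and without aln-1 replicate 1 it was -0.05.

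The expansin-like A genes had the widest positive differences among the measured expansins, wider than those of EXPA7 and EXPA18. EXLA1 was at 0.70 and 1.21 on the aln-1 arrays, against -1.44 and -0.70 on the Col-0 arrays, a difference of 2.03 (SE 0.37) or 4.07-fold. EXLA3 was at 0.79 and 2.11 on the aln-1 arrays, against -1.29 and -0.79 on the Col-0 arrays, a difference of 2.49 (SE 0.56). All 4 arrays of each gene were ordered as for EXPA7, with Col-0 replicate 1 lowest and aln-1 replicate 2 highest. EXLA2 was at 0.48 and 0.66 on the aln-1 arrays, against -1.39 and -0.48 on the Col-0 arrays, a difference of 1.51 (SE 0.38). None of the 3 passed, with limma adjusted p from 0.121 to 0.163. EXLA1 and EXLA3 were 2-fold apart in all 4 array pairs. This order of the arrays, lowest on Col-0 replicate 1 and highest on aln-1 replicate 2, was held by 12.3% of all probe sets.

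The alpha-expansins outside root hairs had a median difference of -0.32 over 8 genes. Of these, 2 had both aln-1 arrays above both Col-0 arrays and 4 had both below, beside 25.2% and 34.9% of all probe sets. EXPA9 differed by 0.71 (SE 0.21) and EXPA20 by 0.66 (SE 0.21). In the other direction EXPA8 differed by -0.97 (SE 0.53), EXPA15 by -0.72 (SE 0.29) and EXPA4 by -0.49 (SE 0.26). EXPA8 rested on aln-1 replicate 2, which stood at -1.46 against -0.12 on aln-1 replicate 1, and its difference was -0.30 without that array. These 5 alpha-expansins were named after their values were seen. Among the beta-expansins EXPB2 differed by 1.00 (SE 0.37), from a probe set whose rounding step belongs to signals below 16. No difference between subfamilies was tested.

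Extensins and leucine-rich repeat extensins outside the set went both ways and further than the root hair extensins. A named probe set of its own was found for 15 of 22 genes, with a median difference of -0.06 and a range from -2.45 to 3.19. Limma called 0 of 15, with a smallest adjusted p of 0.0723. At an unadjusted limma p under 0.05 there were 2 higher and 3 lower, beside 11.1% and 12.3% of all probe sets. AT1G26250 was at -1.53 and -1.08 on the aln-1 arrays, against 1.08 and 1.20 on the Col-0 arrays, a difference of -2.45 (SE 0.22), which is 5.45-fold lower in aln-1. Neither genotype of AT1G26250 came near the other. AT1G26240, the gene next to it in the TAIR10.1 annotation, differed by -2.29 (SE 1.22), most of it from aln-1 replicate 2 at -3.43. Without that array AT1G26240 differed by -0.73, and its rounding step belongs to signals in the dimmest class, unlike that of AT1G26250.

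On the positive side AT1G49490 was at 0.85 and 1.20 on the aln-1 arrays, against -0.85 and -0.88 on the Col-0 arrays, a difference of 1.89 (SE 0.19). AT4G33970 was at 1.05 and 3.09 on the aln-1 arrays, against -1.19 and -1.05 on the Col-0 arrays, a difference of 3.19 (SE 0.80). Both had rounding steps of signals below 16, as had 6 of the 15 genes. AT3G19020, with a rounding step of signals of at least 256, was named after its values were seen. It was at 0.49 and 0.37 on the aln-1 arrays, against -2.38 and -0.37 on the Col-0 arrays. Its difference was 1.81 (SE 0.79), and 0.80 without Col-0 replicate 1. AT4G08380, from the same stretch of chromosome 4 as AT4G08400 and AT4G08410, differed by -1.28 (SE 0.27), opposite in sign to them, and also lay in the dimmest class. It was named after its values were seen. The gene tables used here give these loci no symbol, and their extensin class is that of the list.

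**Figure D2:**
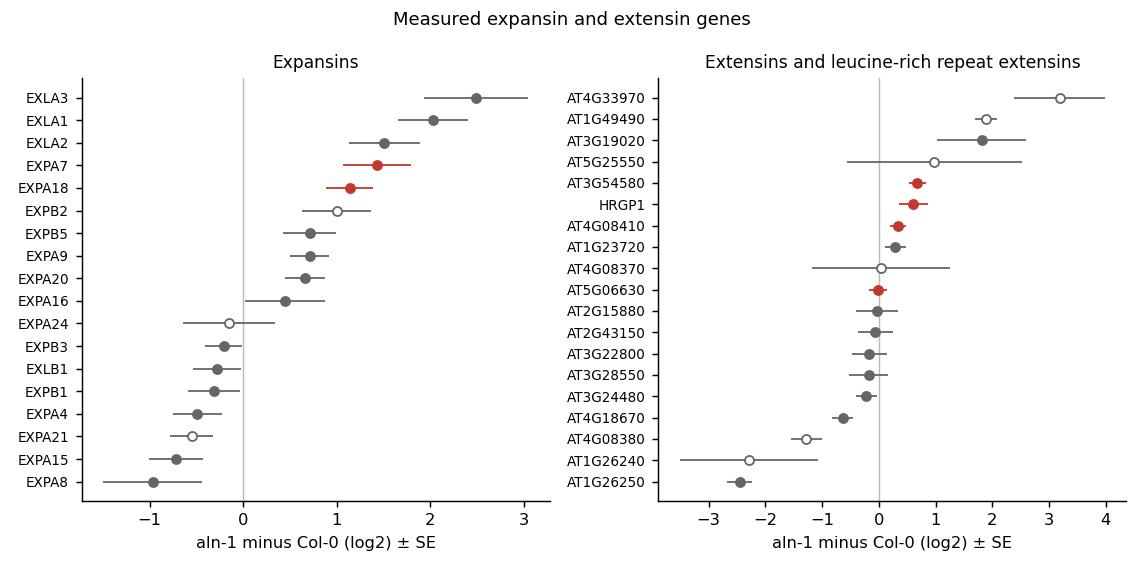
Difference of aln-1 minus Col-0 in log2 signal with its standard error (x axis) for each measured expansin (left) and extensin or leucine-rich repeat extensin (right). Red marks EXPA7, EXPA18 and 4 root hair extensin loci, grey the other genes, and open points have rounding steps of signals below 16; EXLA1, EXLA2 and EXLA3 stand above EXPA7, and AT1G26250 is the lowest of the extensins.

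Genes of root hair growth, signalling and wall building mostly lay on the same side as EXPA7 and EXPA18. The array measured 8 of 40 genes, and 7 of 8 had both aln-1 arrays above both Col-0 arrays, beside 25.2% of all probe sets. Limma called 0 of 8. At an unadjusted limma p under 0.05 there were 1 higher and 0 lower, beside 11.1% and 12.3% of all probe sets. The median difference was 0.51, against 0.64 for the 6 expansin and extensin genes, and without Col-0 replicate 1 it was 0.24.

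XTH26, a xyloglucan endotransglucosylase gene of root hairs, was at 0.82 and 0.97 on the aln-1 arrays, against -4.22 and -0.82 on the Col-0 arrays. One very low Col-0 array set the size of its difference, which was 3.42 (SE 1.32) with both and 1.71 without Col-0 replicate 1. AT1G30870 was at 0.37 and 0.46 on the aln-1 arrays, against -0.59 and -0.37 on the Col-0 arrays, a difference of 0.89 (SE 0.16) with a limma adjusted p of 0.117. AT5G17820 and AT4G26010 differed by 0.64 (SE 0.35) and 0.55 (SE 0.35). Without Col-0 replicate 1 these 2 differences were 0.25 and 0.15.

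Among the other 4 measured genes CSLD2, which makes wall polysaccharide at growing tips, differed by 0.47 (SE 0.26), FER, a receptor kinase that senses the wall, by 0.24 (SE 0.20), and SCN1, which confines growth to 1 site per hair cell, by 0.21 (SE 0.16). AT1G34510 was the gene whose genotypes overlapped, at -0.37 (SE 0.35), and at 0.04 without Col-0 replicate 2. These 4 were named after their values were seen and complete the list. Col-0 replicate 2 was above Col-0 replicate 1 for 8 of 8 genes, beside 47.6% of all probe sets, and the median gap was 0.50. In aln-1, replicate 2 was above for 5 of 8, beside 45.0% of all probe sets.

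The regulators that decide which root cells form hairs were hardly covered. The array measured 2 of 16 genes, and both had overlapping genotypes. TRY, a small MYB protein that acts in the patterning of hairs and trichomes, differed by 0.27 (SE 0.43), and by -0.23 without aln-1 replicate 1. AT2G14760 differed by -0.51 (SE 0.65), and by 0.27 without Col-0 replicate 1. In the limma test 0 of 2 passed, beside 0.255% of all probe sets. At an unadjusted limma p under 0.05 there were 0 higher and 0 lower, beside 11.1% and 12.3% of all probe sets. Counts over 2 genes cannot show a lack of change. The hair regulators RHD6 and RSL4 and the hair genes COW1, PRP3 and LRX1 had no named probe set of their own and were not analysed here.

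Enzymes that decorate extensins with sugars showed small differences. Extensins need their prolines hydroxylated and then capped with arabinose chains before they cross-link. The array measured 4 of 12 genes, all at signals of at least 256, and 0 of 4 passed the limma test, with 0 at an unadjusted limma p under 0.05. XEG113, an arabinosyltransferase, differed by 0.17 (SE 0.14) and AT5G13500 by 0.22 (SE 0.13). AT3G57630 differed by -0.35 (SE 0.13), and AT3G01720 by -0.02 (SE 0.19), which turned to 0.04 when arrays were centred on their medians. All 4 lay nearer to 0 than EXPA7, EXPA18, HRGP1 and AT3G54580. They did not lie nearer to 0 than every root hair extensin. AT5G06630, at -0.01, was nearer than any of the 4, and AT4G08410, at 0.34, was about as far as AT3G57630.

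**Figure D3:**
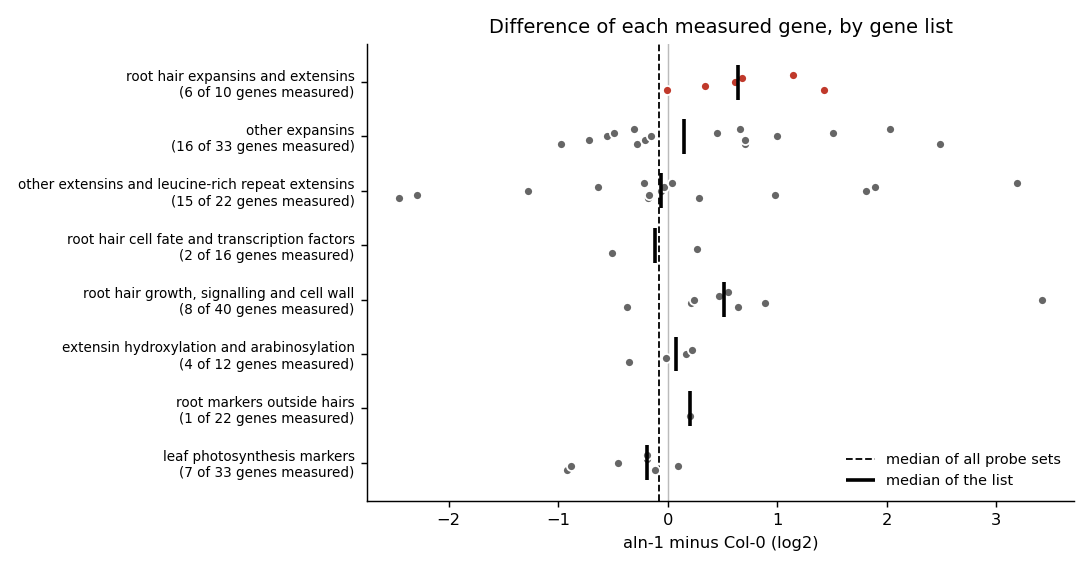
Difference of aln-1 minus Col-0 in log2 signal (x axis) for each measured gene, in rows by gene list. Thick bars are the median of a list and the dashed line is the median of all probe sets, -0.08; the medians of the root hair expansins and extensins, 0.64, and of the root hair growth list, 0.51, lie furthest to the right.

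Root tissue in the harvested material would carry root transcripts other than those of hairs, and the array held 1 of 22 such markers. PYK10, an abundant beta-glucosidase gene of roots and seedlings, was at 0.08 and 0.15 on the aln-1 arrays, against -0.08 and -0.10 on the Col-0 arrays. Its difference of 0.20 (SE 0.13) had the sign of those of EXPA7 and EXPA18 and about the size of that of SCN1. It did not pass (limma adjusted p = 0.418). The Col-0 arrays of PYK10 were nearly equal, whereas those of EXPA7 were 0.82 apart. PYK10 had a rounding step of signals of at least 256 and so was not among the dim probe sets. The other 21 root markers were not analysed here, and the part of root tissue in the result was not tested.

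Leaf photosynthesis markers lay slightly on the other side. The array measured 7 of 33 genes, and 0 of 7 passed the limma test. At an unadjusted limma p under 0.05, 2 were lower, beside 12.3% of all probe sets. The median difference was -0.19, beside -0.08 over all probe sets. Both aln-1 arrays were below both Col-0 arrays for 4 of 7 genes, beside 34.9% of all probe sets. The mean over the 7 genes was -0.07 and -0.35 on the aln-1 arrays, against 0.24 and 0.10 on the Col-0 arrays. SBPASE and PRK of the Calvin cycle differed by -0.92 (SE 0.22) and -0.88 (SE 0.24), and RCA, which activates Rubisco, by -0.45 (SE 0.17). The light-harvesting gene LHCB4.1 differed by -0.19 (SE 0.17). LHCB4.2, PSAE-1 and PSAN, added after their values were seen, complete the list. They differed by 0.09 (SE 0.22), -0.12 (SE 0.20) and -0.19 (SE 0.13). The mean of the 6 root hair expansin and extensin genes was 0.23 and 0.41 on the aln-1 arrays, against -0.56 and -0.20 on the Col-0 arrays. On both measures aln-1 replicate 2 and Col-0 replicate 1 stood at the ends, in opposite order, and the part of the leaf share in the result was not tested.

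**Figure D4:**
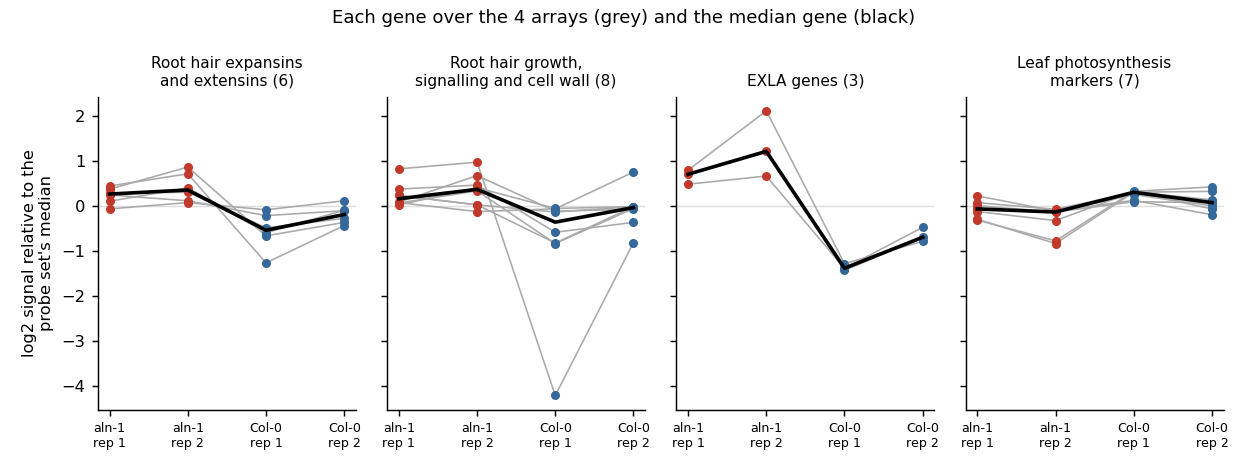
Log2 signal relative to the probe set's median (y axis) on each of the 4 arrays (x axis) for 4 groups of genes. Grey lines join the values of 1 gene, points are red for aln-1 and blue for Col-0, and the black line is the median gene; the median gene of the first 3 groups is lowest on Col-0 replicate 1, where XTH26 stands at -4.22.

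The profile of the 6 genes is shared by many others on these arrays. Among the 13507 other single-gene probe sets, likeness was measured as the Euclidean distance over the 4 arrays to the mean profile of the 6. The nearest 5 were AT2G39430 at a distance of 0.048, AT1G68600 at 0.065, AT3G01190 at 0.069, and AT4G30380 and AT1G29670 at 0.072 each. AT2G39430, the nearest, was at 0.23 and 0.43 on the aln-1 arrays, against -0.53 and -0.23 on the Col-0 arrays, a difference of 0.71. The 6 genes themselves lay between 0.156 and 0.836 from their own mean, and 28 other probe sets lay closer than the closest of them. The median distance over all the others was 1.10.

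The protein-coding genes next to the root hair genes in the TAIR10.1 annotation did not share one pattern. AT1G12570, the neighbour of EXPA7, was at 1.23 and -0.16 on the aln-1 arrays, against 0.15 and -0.15 on the Col-0 arrays, so its genotypes overlapped. AT3G54570, on the other side of AT3G54580 from HRGP1, was at -0.02 and 0.02 on the aln-1 arrays, against -1.61 and 0.25 on the Col-0 arrays. It was low on Col-0 replicate 1 and not on Col-0 replicate 2. AT4G08430, the neighbour of AT4G08410, was at -2.92 and -0.80 on the aln-1 arrays, against 0.80 and 0.95 on the Col-0 arrays, opposite in direction to AT4G08410.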

How the data were processed

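Transcript levels were measured on 4 Affymetrix arrays. Per the submitters' processing notes, MAS5 made the signals; no source used here gives its version or scaling target. The deposited log2 values are relative to each probe set's median, since the middle pair of its 4 values summed to 0 within 1.4e-06. The logarithm's base, which no source states, was read as 2 from how single precision values round: 45.9% of probe sets had the step of signals of at least 256 with base 2, which would be 2981 with natural logarithms. A row's finest step gave its approximate signal bracket. Signal levels and detection calls could not be formed, no filter on dim probe sets entered the tests, and the number of arrays limits the precision.

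The deposited values were fitted without change in limma 3.58.1 under R 4.3.3 (lmFit on genotype, eBayes, two-sided, Benjamini-Hochberg over 22746 probe sets, adjusted p threshold 0.05). Differences are aln-1 minus Col-0, with limma's standard error. The fit was run on simulated data with planted differences larger than those of the root hair expansins and extensins, so that run does not cover differences of their size. Gene names came from the array annotation, matched through gene identifiers to a RefSeq table of TAIR10.1. Of the probe sets, 13513 had 1 gene (13436 matched), 503 had more than 1, and the 8730 that the annotation did not list stay unnamed. The genes described and the 7 lists of 178 other genes were chosen with earlier results of these data known. Named from each list were genes past the threshold and up to 4 others with the largest differences; text marks those added afterwards. Alternatives were each array left out, the replicate number as a block, median centring, robust eBayes, another threshold, and probe sets left out by type, brightness or equal values.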

Additional observations from a re-analysis of the deposited data

How the results depend on the processing

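The count of 58 limma calls over all probe sets (35 higher and 23 lower in aln-1) was 0 in the fit with a replicate block, 0 with robust eBayes and 0 without any 1 array (4460, 5084 and 2953 to 5326 probe sets then had an unadjusted p under 0.05), and 1078 at an adjusted p threshold of 0.1; the cause was not tested, except that a left-out array leaves fewer samples. Median centring gave 82, and 66 came out without equal values. The deviations of same-numbered arrays had a correlation of 0.0209 over all probe sets. That value covers all probe sets at once, so it cannot exclude a pairing that touches only part of the genes. The block left the median difference of the 6 root hair genes at 0.64, and the counts of list genes called stayed at 0 in each refit, the block included. At an adjusted p threshold of 0.1, added after seeing the data, the other extensins had 2 (AT1G26250 and AT1G49490) and the other lists 0. The median of the 6 genes was 0.46 to 0.82 with an array left out, 0.70 after median centring, 0.68 with the shared probe set and 1.14 without the _x_at probe sets, where fewer genes remain. Probe sets 2-fold apart in all 4 pairs numbered 1868, 13681 with any gap, and 2932 to 3966 without 1 array, a rule with fewer pairs to meet. Of the other named genes, those that turned were small: with an array left out AT2G14760 ranged from -1.29 to 0.27, TRY from -0.23 to 0.76, AT3G01720 from -0.18 to 0.14 (0.04 after centring) and AT1G34510 from -0.78 to 0.04. The dimmest class, with a median SD of 0.94 against 0.14 in the brightest, limits what can be said of AT4G33970, AT1G49490, AT1G26240, AT4G08380 and the shared probe set. Without that class the median was 0.45 for the other expansins and -0.17 for the other extensins; this alternative was chosen after seeing the data. The extensin median turned to 0.19 without aln-1 replicate 2.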

Other observations

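Xyloglucan endotransglucosylase genes (XTH) cut and rejoin the xyloglucan that ties cellulose together, and 8 of them outside the lists had a probe set of their own. XTH18, XTH19 and XTH20, which are known from roots, were on the same side as EXPA7. Of the 8, these 3 had both aln-1 arrays above both Col-0 arrays, beside 25.2% of all probe sets. Another 2 had both below, beside 34.9%. The genotypes of the other 3 overlapped. XTH21 differed by 1.70 (SE 1.66), XTH29 by -0.46 (SE 0.96) and XTH32 by -0.32 (SE 0.25). XTH19 was at 0.88 and 0.44 on the aln-1 arrays, against -1.29 and -0.44 on the Col-0 arrays, a difference of 1.53 (SE 0.39, limma adjusted p = 0.166). XTH18 and XTH20 differed by 1.47 (SE 0.72) and 1.26 (SE 0.51), and by 0.75 without aln-1 replicate 2 for XTH18. Their genotypes were 0.17 and 0.36 apart. XTH33 and XTH16 differed by -0.88 (SE 0.26) and -0.60 (SE 0.28), with both aln-1 arrays below both Col-0 arrays. In the limma test 0 of 8 passed. At an unadjusted limma p under 0.05 there were 1 higher and 1 lower, beside 11.1% and 12.3% of all probe sets. Col-0 replicate 2 was above Col-0 replicate 1 for 6 of 8 of these genes, beside 47.6% of all probe sets. These genes were chosen after seeing the data.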
